A study of Homo sapiens with 16 samples.

Results

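CDKN2A, CDKN2B and MTAP are neighbouring genes on the short arm of chromosome 9, in band 9p21, that are often lost together in lung cancer and other tumours. Here they were followed across 8 cell lines derived from human lung cancers, named H23, H358, H460, H661, H1437, H1703, A427 and A549. The array's probe sets annotated to 1 of the 3 genes and to no other gene were taken, which gave 11 of the 54675 probe sets: 3 for CDKN2A, 2 for CDKN2B and 6 for MTAP. Each line had been grown in Matrigel, a basement membrane extract (3D), and on tissue culture plastic (2D). In 3D the cells sat on a thin Matrigel layer under medium that contained 2% Matrigel, and density and medium were similar in both cultures. All lines were untreated, and 1 array was hybridised per line and culture, 8 of 3D and 8 of 2D, which makes 16. Each line stands for itself as a model and is not a replicate of a genotype.

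CDKN2A encodes 2 proteins from alternative first exons, read in different frames. The p16INK4a protein inhibits the cyclin D kinases CDK4 and CDK6, which keeps the retinoblastoma protein RB1 active and holds cells in G1, while ARF binds and inhibits the ubiquitin ligase MDM2. CDKN2B encodes p15INK4b, another inhibitor of CDK4 and CDK6, known as a TGF-beta target. MTAP encodes methylthioadenosine phosphorylase, which returns the methylthioadenosine made in polyamine synthesis to methionine; without it methylthioadenosine builds up and partly inhibits the arginine methyltransferase PRMT5.

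The promoter windows are shown because the 3 genes, although neighbours, start from separate promoters that differ in CG content, and promoters rich in CG can be silenced by methylation as well as lost. Each window is the 250 bases upstream of a start in RefSeq GRCh38.p14, written 5′ to 3′ in the direction of transcription, with every CG in capitals. The windows lie at chr9:21802386-21802635 on the plus strand for MTAP, and on the minus strand at chr9:21995325-21995574 for the ARF start of CDKN2A, at chr9:21974858-21975107 for its p16INK4a start and at chr9:22009306-22009555 for CDKN2B.
MTAP: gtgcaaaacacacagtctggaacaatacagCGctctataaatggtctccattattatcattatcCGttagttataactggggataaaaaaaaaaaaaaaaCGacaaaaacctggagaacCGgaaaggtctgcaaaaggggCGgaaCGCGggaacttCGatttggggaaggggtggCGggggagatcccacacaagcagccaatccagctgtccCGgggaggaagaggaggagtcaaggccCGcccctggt
CDKN2A, ARF start: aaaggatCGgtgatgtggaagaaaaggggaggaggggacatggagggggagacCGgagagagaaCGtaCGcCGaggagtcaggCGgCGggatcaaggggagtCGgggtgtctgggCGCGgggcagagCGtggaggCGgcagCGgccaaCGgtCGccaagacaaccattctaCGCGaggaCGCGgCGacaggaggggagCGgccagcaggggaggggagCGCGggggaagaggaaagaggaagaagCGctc
CDKN2A, p16INK4a start: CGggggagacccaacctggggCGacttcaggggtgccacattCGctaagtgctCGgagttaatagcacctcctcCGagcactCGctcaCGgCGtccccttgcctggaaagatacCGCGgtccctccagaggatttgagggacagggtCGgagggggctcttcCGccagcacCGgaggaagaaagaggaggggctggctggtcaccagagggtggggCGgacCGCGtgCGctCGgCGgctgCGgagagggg
CDKN2B: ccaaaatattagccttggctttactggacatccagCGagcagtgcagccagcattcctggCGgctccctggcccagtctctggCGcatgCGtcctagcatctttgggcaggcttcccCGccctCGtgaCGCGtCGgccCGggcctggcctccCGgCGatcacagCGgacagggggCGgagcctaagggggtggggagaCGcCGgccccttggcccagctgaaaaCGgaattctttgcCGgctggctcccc
The ARF window held 24 CG pairs, the p16INK4a window 20, the CDKN2B window 18 and the MTAP window 11, where the median over 35116 RefSeq windows of the same length was 11. As many CG pairs as in the ARF window were found in 23.7% of all windows, as many as in the p16INK4a window in 32.4%, as many as in the CDKN2B window in 36.8%, and as many as in the MTAP window in 50.3%. The letters GGGCGG, searched on both strands, occurred 2 times in the CDKN2B and MTAP windows, 1 time in the p16INK4a window and 0 times in the ARF window, and at least 1 time in 42.6% of all windows. DNA methylation and DNA copy number were not measured in these files, so a lost gene and a silent gene cannot be told apart.

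The values are log2 ratios of a probe set's signal to a reference of its own. For 63.5% of all probe sets that reference was their median over the 16 arrays, taken before the log2 step. The other 36.5%, called dim here, had a median under it. Where the middle arrays lie far apart, the median of the log2 ratios is therefore below 0, such as -0.97 for CDKN2A 207039_at. Ratios therefore compare arrays within a probe set, and the level of one gene cannot be set against that of another. Of the 11 probe sets of the 3 genes, 9 were not dim, and CDKN2B 207530_s_at and MTAP 217134_at were dim. No detection calls came with the values used, so a low array has no measured background beside it. Array medians lay between -0.28 and -0.07 (log2), and each of the 16 arrays correlated best with the array of its own line. The number of arrays limits the precision.

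Which lines lacked the transcripts was the first question, and CDKN2A split them clearly. A427, A549, H460 and H1437 had very low CDKN2A signal in both cultures, and H23, H358, H661 and H1703 had clear signal in both. On probe set 207039_at the log2 ratio was -2.83 in 3D and -2.88 in 2D for A427, -2.89 and -2.93 for A549, -2.88 and -2.94 for H460, and -2.84 and -2.92 for H1437. These 8 arrays lay within 0.10 of each other. In the remaining lines the ratio was 0.90 in 3D and 0.97 in 2D for H23, 3.35 and 3.72 for H358, 3.45 and 3.83 for H661, and 4.81 and 5.22 for H1703. An empty interval of 3.73 separated the lower 8 arrays from the upper 8, and no line had arrays on both sides. H1703, the highest line, averaged 5.02 over both cultures and A549, the lowest, -2.91. Among the lines with signal, H358 (mean 3.54) and H661 (3.64) differed by less than the residual SD of 0.16, so their order is not settled, while H23 lay apart from both. H23 was 16.9-fold below H1703, and H358 was 2.79-fold below it.

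The second CDKN2A probe set, 209644_x_at, put the same 4 lines low. Its ratio was -3.29 in 3D and -2.99 in 2D for A427, -2.64 and -2.38 for A549, -2.77 and -2.81 for H460, and -2.69 and -2.67 for H1437. It was 0.98 in 3D and 0.85 in 2D for H23, 2.19 and 2.58 for H358, 1.84 and 1.54 for H661, and 3.02 and 3.49 for H1703. The gap between the 2 sets of arrays was 3.23. Over the 8 line means the pair of probe sets correlated at r = 0.99, a description in which both share the same arrays and RNA. The third CDKN2A probe set, 211156_at, stayed between -0.06 and 0.14 in all 16 arrays and told no line from another. Which of these probe sets reads the p16INK4a transcript, the ARF transcript or both is not given in the sources used here.

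**Figure D1:**
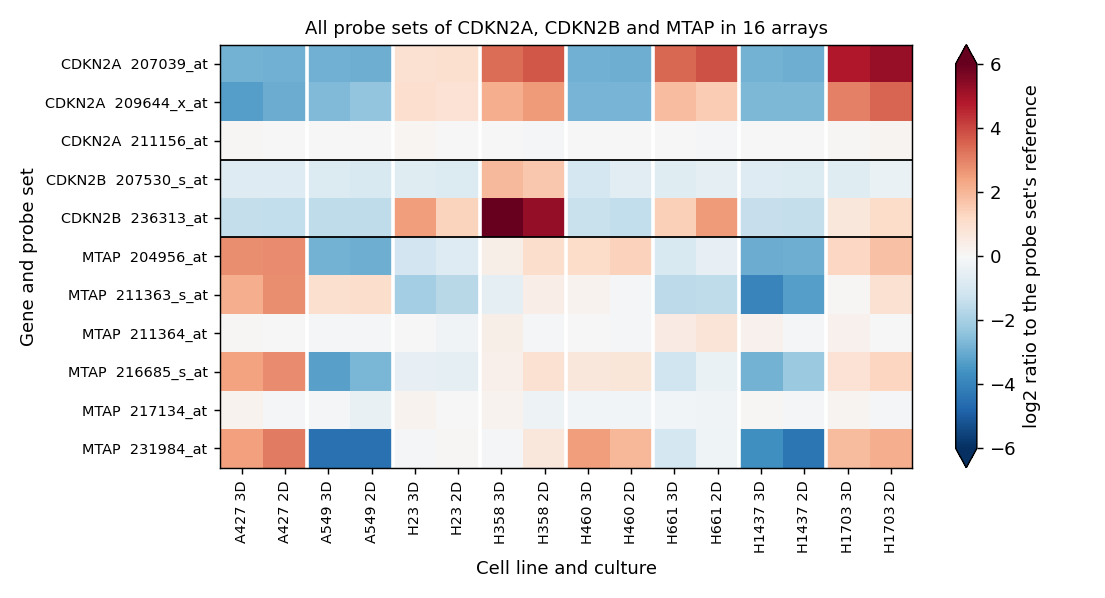
Log2 ratio of each of the 11 probe sets of CDKN2A, CDKN2B and MTAP (rows) in the 16 arrays (columns, 3D left of 2D for each line), with blue below and red above the probe set's own reference. A427, A549, H460 and H1437 are blue on CDKN2A 207039_at and 209644_x_at in both cultures, and A549 and H1437 are the deepest blue on MTAP 204956_at, 216685_s_at and 231984_at. H23 and H661 are a paler blue on MTAP 204956_at and 216685_s_at, as is H661 on 231984_at.

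CDKN2B followed CDKN2A in which lines were low. On probe set 236313_at the ratio was -1.45 in 3D and -1.49 in 2D for A427, -1.51 and -1.53 for A549, -1.35 and -1.47 for H460, and -1.40 and -1.44 for H1437. H358 had by far the highest ratio, 6.35 in 3D and 5.29 in 2D. H23 had 2.51 in 3D and 1.34 in 2D, H661 had 1.44 and 2.56, and H1703 had 0.69 and 1.12. The 4 lines with low CDKN2A were thus also the 4 lowest for CDKN2B, and none of their arrays reached those of the other lines. The means of H23 (1.93) and H661 (2.00) differed by less than the residual SD of 0.52. The order above the low level was not the same for both genes: H1703, the highest line for CDKN2A, was the lowest of the 4 lines with signal for CDKN2B. CDKN2B 207530_s_at, a dim probe set, stood out in H358 alone, at 1.95 in 3D and 1.59 in 2D, while the other 14 arrays lay between -1.07 and -0.41. H23 and H661, which had CDKN2B signal on 236313_at, were therefore not apart from the low lines on 207530_s_at.

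MTAP split the 4 low lines. A549 and H1437 had very low MTAP signal, and A427 and H460 did not. On probe set 204956_at the ratio was -2.84 in 3D and -2.93 in 2D for A549, and -2.99 and -2.94 for H1437. For A427 it was 2.77 in 3D and 2.84 in 2D, the highest of all lines, and for H460 it was 1.11 and 1.38. The lines with CDKN2A signal were spread between these: H23 had -1.13 in 3D and -0.78 in 2D, H358 had 0.36 and 1.03, H661 had -0.92 and -0.48, and H1703 had 1.24 and 1.77. A gap of 1.71 separated the 4 arrays of A549 and H1437 from the other 12. The means of A549 and H1437 differed by less than the residual SD of 0.19.

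Probe set 231984_at gave the same 2 low lines with a wider gap of 2.63. There A549 had -4.46 in 3D and -4.47 in 2D, H1437 had -3.68 and -4.32, A427 had 2.45 and 3.13, and H460 had 2.50 and 1.97. Probe set 216685_s_at also placed A549 (-3.28 in 3D, -2.75 in 2D) and H1437 (-2.84, -2.21) lowest and A427 (2.40, 2.85) highest. By the mean of both cultures A427 was the line with the highest MTAP on these 3 probe sets, with H460 just above it on 231984_at in 3D, although its CDKN2A and CDKN2B were among the lowest.

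One MTAP probe set parted from the rest in A549. On 211363_s_at A549 had 0.95 in 3D and 1.06 in 2D, which made it the second highest line after A427 (2.18 in 3D, 2.78 in 2D), while H1437 stayed lowest at -3.95 and -3.30. H23 (-2.03, -1.65) and H661 (-1.58, -1.53) came next above H1437. The line means of 211363_s_at correlated with those of 204956_at, 216685_s_at and 231984_at at r = 0.65, 0.59 and 0.50 over 8 lines, where those 3 correlated with each other at 0.96 to 0.99. Where on the transcript each probe set lies is not given in the sources used here, so whether A549 keeps a part of the MTAP transcript was not tested. The other MTAP probe sets, 211364_at (-0.20 to 0.77) and 217134_at (-0.46 to 0.23), were nearly flat and followed no line pattern.

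The spread between lines exceeded the spread within lines for 8 of the 11 probe sets. This was tested with limma's moderated F test over the 7 line coefficients, in which the 3D and 2D arrays of a line serve as its repeats, with Benjamini-Hochberg adjustment over 41097 probe sets with a single gene symbol. In that test 61.6% of all 41097 probe sets were called, so a call by itself is common here, and the size of the spread says more. The adjusted p was 4.01e-09 for CDKN2A 207039_at, 2.56e-08 for 209644_x_at and 9.41e-06 for CDKN2B 236313_at. For MTAP it was 9.90e-08 on 204956_at, 3.68e-07 on 216685_s_at, 1.06e-06 on 231984_at and 2.00e-06 on 211363_s_at. The line means of CDKN2A 207039_at spanned 7.92, those of CDKN2B 236313_at 7.34 and those of MTAP 231984_at 7.26 (log2), against a median span of 1.30 over all 41097 probe sets. The call for CDKN2B 207530_s_at (adjusted p = 1.10e-05) rested on H358 and was lost without that line (adjusted p = 0.476). CDKN2A 211156_at (adjusted p = 0.818), MTAP 211364_at (0.0679) and MTAP 217134_at (0.264) were not called.

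**Figure D2:**
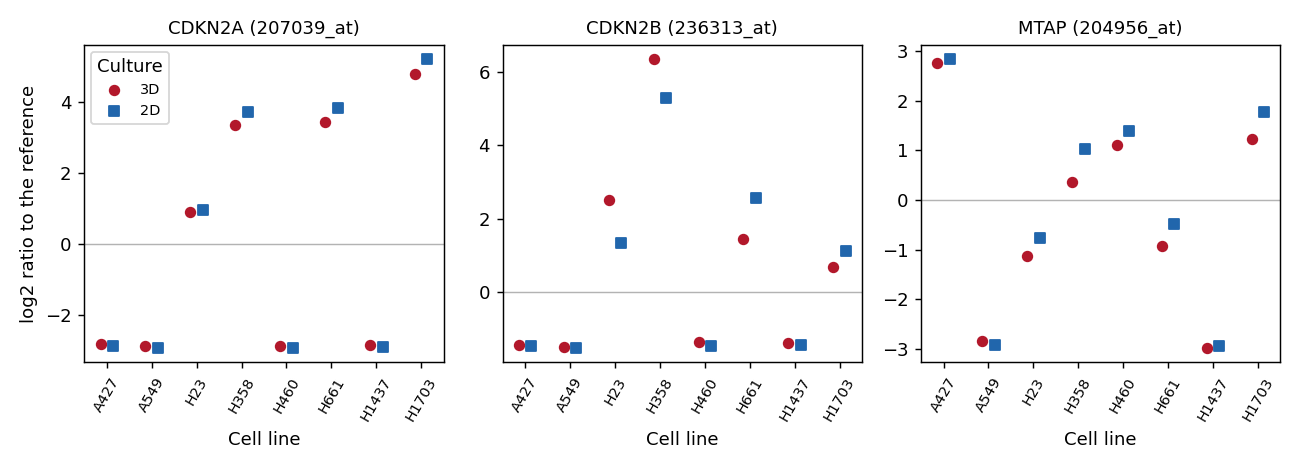
Log2 ratio (vertical axis) of CDKN2A 207039_at, CDKN2B 236313_at and MTAP 204956_at in each of the 8 lines, 1 point per array, with 3D (circles) left of 2D (squares). The low level is shared by 4 lines for CDKN2A and CDKN2B and by 2 lines for MTAP, and the widest gaps between cultures are those of CDKN2B in H23, H358 and H661.

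Read line by line, 3 patterns were seen, and no lines were grouped for a test. A549 and H1437 were low for all 3 genes, apart from 211363_s_at in A549. A427 and H460 were low for CDKN2A and CDKN2B and not for MTAP. H23, H358, H661 and H1703 had signal for all 3, with H23 and H661 on the low side for MTAP.

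The genes around the locus were read next, to see how far along the chromosome the low signal reached. In RefSeq order MTAP comes first, then CDKN2A, then CDKN2B, and the 30 nearest genes with a probe set of their own were taken on each side, together with the antisense genes CDKN2A-AS1 and CDKN2B-AS1 inside the block. These 62 genes had 119 probe sets, of which 62, from 30 genes, were not dim. Of these 62 probe sets 53 (85.5%) differed between lines, where 77.9% of all probe sets that were not dim did. The type I interferon genes that fill much of the MTAP side were dim and give no reading of low signal.

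H1437 was low well beyond MTAP. FOCAD, which encodes focadhesin, lies 18 genes before the block, counting genes with a probe set of their own, and on 218503_at it had -5.71 in 3D and -5.26 in 2D in H1437, while the means of the other lines lay between -0.46 and 1.17. KLHL9, an adaptor of a cullin ubiquitin ligase, lies 6 genes before the block and had -6.19 in 3D and -6.22 in 2D in H1437 on 213233_s_at, and -3.70 and -4.04 on 213117_at. In A549 the KLHL9 ratio was 0.27 in 3D and 0.45 in 2D on 213233_s_at, and A549 was the highest line for FOCAD, at 1.20 and 1.14. MIR31HG, the host gene of miR-31, is the nearest tested neighbour on the MTAP side, and it was highest in A549 (3.92 in 3D, 4.18 in 2D) and lowest in H1437 (-1.90, -0.84). IFNE, the last gene before MTAP by start position among those with a probe set, was dim, with its highest ratios in A549, 2.06 in 3D and 2.61 in 2D. Genes were ordered by start alone, so IFNE need not lie between MIR31HG and MTAP. Among the genes that could be read, A549 was thus low at MTAP and not at IFNE or MIR31HG, and H1437 was low as far as FOCAD. Further out, HAUS6, a subunit of the augmin complex, and RRAGA, a Rag GTPase of the mTORC1 pathway, were lowest in H1437 and highest in A549, with line means of -1.91 and 1.51 for HAUS6.

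On the CDKN2B side the nearest tested gene is TUSC1, an intronless gene named as a tumour suppressor candidate, which lies 3 genes after the block. It was low in the same 2 lines as MTAP: H1437 had -5.36 in 3D and -5.39 in 2D, and A549 had -2.31 and -4.34. In A427 it was 1.13 in 3D and 0.89 in 2D, in H460 1.86 and 1.26, and in the other lines the means lay between -0.68 and 0.37. The spread between lines passed the F test (adjusted p = 1.76e-05). CAAP1, an inhibitor of caspase activation 5 genes after the block, was not low in these lines, with a mean of 1.02 in H1437, the highest line, and 0.06 in 3D and -0.07 in 2D in A549. PLAA and IFT74, the next ones, were likewise not low in A549 (0.69 and 0.40) or H1437 (0.52 and 0.23) as line means. For A427 and H460, which were low for CDKN2A and CDKN2B, neither MTAP on one side nor TUSC1 on the other was low, and the genes between CDKN2B and TUSC1 were dim. Of the antisense genes, CDKN2A-AS1 was dim, and its single raised array was H661 in 2D (1.18, against -0.44 in 3D). CDKN2B-AS1 was also dim, a label that holds for a probe set over all arrays and not for single lines.

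**Figure D3:**
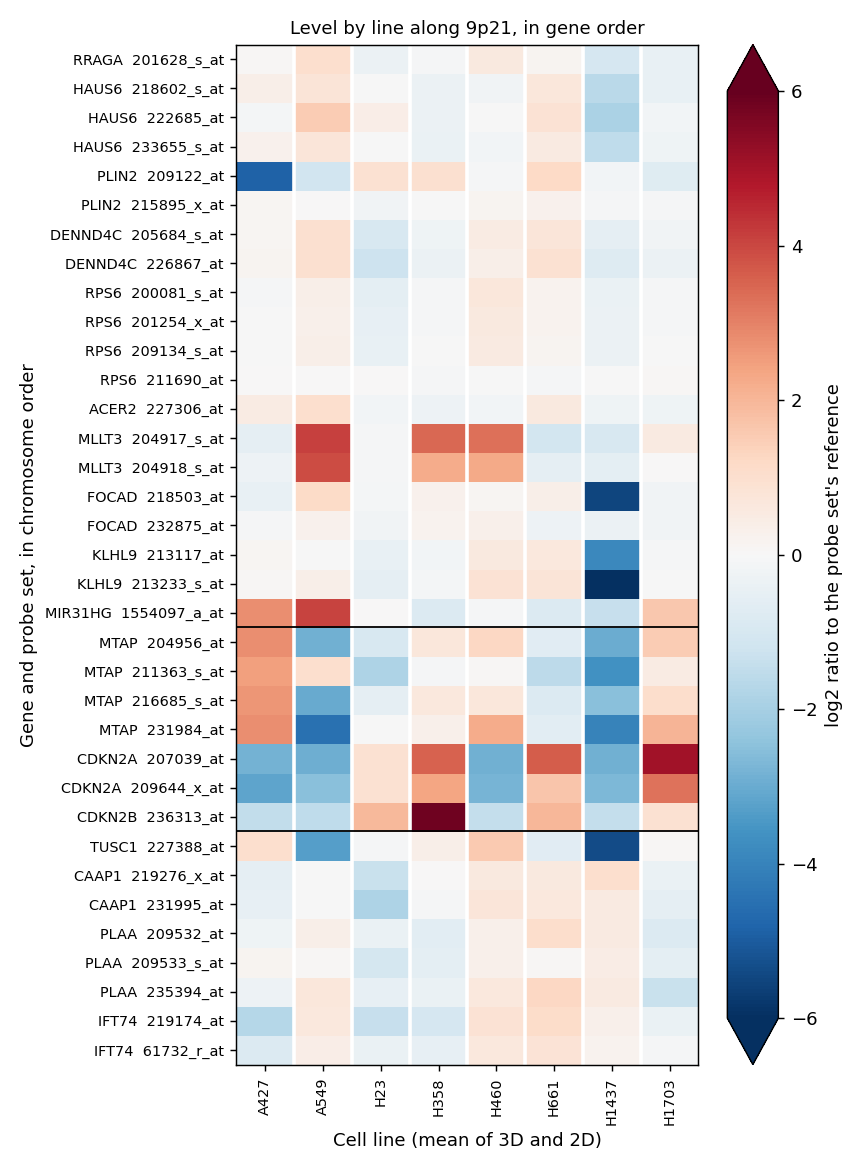
Line means of the log2 ratio (mean of 3D and 2D) for probe sets that were not dim, from the 9p21 genes nearest to the block, in RefSeq gene order from top to bottom, with horizontal lines around CDKN2A, CDKN2B and MTAP. H1437 is blue at FOCAD, KLHL9, all 3 genes and TUSC1, A549 at the 3 genes (not on MTAP 211363_s_at) and TUSC1, and H460 at CDKN2A and CDKN2B, as is A427, which also has a deep blue cell at PLIN2 209122_at. Arrowheads on the colour scale mark values past 6 in either direction.

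With 1 representative probe set a gene, 27 of the 62 neighbours were tested, and 21 differed between lines, where 78.4% of all 13788 genes tested did. On the MTAP side these were ADAMTSL1, RRAGA, HAUS6, RPS6, MLLT3 and MIR31HG. On the CDKN2B side they were TUSC1, CAAP1, PLAA, IFT74, C9orf72, ACO1, RIGI, TOPORS, SMIM27, APTX, DNAJA1, SMU1, B4GALT1, BAG1 and CHMP5. Some had wide spans that did not follow the locus: MLLT3, a subunit of the super elongation complex, was highest in A549 (4.11), with 3.28 in H460 and -0.94 in H1437, and BAG1, a co-chaperone, was highest in H1437 (3.27) and lowest in H661 (-2.31). The representative is the probe set with the highest mean ratio, so a set that is very low in some lines tends to be passed over. The representatives of FOCAD, MTAP and PLIN2 are flat ones and that of KLHL9 is dim. Other probe sets of FOCAD, MTAP and KLHL9 are therefore given above. For PLIN2 the line means of the representative 215895_x_at spanned 0.44, against 6.02 on 209122_at. A line mean at least 3 log2 units below all other lines was found on 3 neighbouring probe sets for H1437, all from FOCAD and KLHL9, on 1 for A427 (PLIN2 209122_at, -4.84; PLIN2 encodes a lipid droplet coat protein) and on 0 for each of the other 6 lines.

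The second question was whether culture in Matrigel moved the 3 genes where they had signal. In the fit of 3D minus 2D with the cell line as a block, 0 of the 11 probe sets passed an adjusted p of 0.05 (limma, Benjamini-Hochberg over 41097 probe sets), where 2.73% of all probe sets did, 1.79% as lower and 0.942% as higher in 3D. At an unadjusted p under 0.05 there were 4, where 21.7% of all probe sets passed it, and all 4 were from MTAP: 204956_at, 211363_s_at, 216685_s_at and 217134_at. With 1 array per line and culture, these p-values measure the spread of the difference over lines, and the difference of a single line has no replicate check. In such bulk RNA, fewer cells of a type and less RNA per cell cannot be told apart.

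For CDKN2A the mean difference on 207039_at was -0.13 ± 0.22 (SD, n = 8 lines; limma, adjusted p = 0.396). A change can be read only in the 4 lines with signal, and there the difference was -0.41 in H1703, -0.39 in H661, -0.36 in H358 and -0.08 in H23. The low lines gave 0.04 to 0.07 on this probe set. On 209644_x_at H1703 (-0.48) and H358 (-0.38) were again lower in 3D, while H661 was 0.30 and H23 0.13 higher, so the probe sets disagree on the direction in H661 and H23. Of the low lines, A427 (-0.30) and A549 (-0.26) were also lower in 3D on 209644_x_at, with H460 at 0.04 and H1437 at -0.02. Differences near 0.30 in size thus occurred there without clear CDKN2A signal.

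CDKN2B 236313_at moved most between cultures in single lines, and in opposite directions. It was higher in 3D by 1.16 in H23 and by 1.06 in H358 (2.24-fold and 2.08-fold), and lower in 3D in H661 (-1.12) and H1703 (-0.43). In the 4 low lines the difference was 0.01 to 0.11. The mean over lines was 0.11 ± 0.74 (SD, n = 8; limma, adjusted p = 0.804), and its sign turned without H23 (-0.043) or without H358 (-0.028). In H358 the dim probe set 207530_s_at was also higher in 3D, by 0.36.

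MTAP was on average lower in 3D on the 4 probe sets that differ between lines. The difference was -0.43 ± 0.31 on 216685_s_at (limma, adjusted p = 0.0595), -0.41 ± 0.43 on 211363_s_at (0.131), -0.29 ± 0.26 on 204956_at (0.118) and -0.18 ± 0.56 on 231984_at (0.540), with SDs over 8 lines. On the first 3 of these, 7 of 8 lines were lower in 3D. These means and counts include A549 and H1437, whose MTAP signal was very low (A549 not on 211363_s_at). On 216685_s_at both were lower in 3D by amounts like those of lines with signal, -0.53 in A549 and -0.62 in H1437. H1437 was 0.65 lower in 3D on 211363_s_at and 0.65 higher on 231984_at. Averaged over the 4 probe sets, H358 was at 0.01 in 3D and 0.76 in 2D, H661 at -1.19 and -0.66, H1703 at 1.01 and 1.53, A427 at 2.45 and 2.90, and H23 at -0.93 and -0.74. The lines with very low signal were at -2.41 in 3D and -2.27 in 2D (A549) and at -3.36 and -3.20 (H1437). In this average H460 alone was higher in 3D, at 1.12 in 3D and 1.01 in 2D. The line that was higher differed by probe set: A549 on 204956_at (0.09), H23 on 216685_s_at (0.11) and H460 on 211363_s_at (0.27). The call for 216685_s_at depended on the filter, since with dim probe sets left out of the fit its adjusted p was 0.0400 (limma). MTAP 217134_at, dim and nearly flat, went the other way, by 0.24 ± 0.18 and higher in 3D in 8 of 8 lines (limma, adjusted p = 0.101).

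The 18S rRNA controls of the array (3 probe sets) moved with culture too. They were lower in 3D in 8 of 8 lines, by -1.15 ± 1.06 (SD, n = 8), and by -3.45 in H23. With the 18S level as a covariate 1 of 41097 probe sets was called. The part of this difference in the results was not tested.

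**Figure D4:**
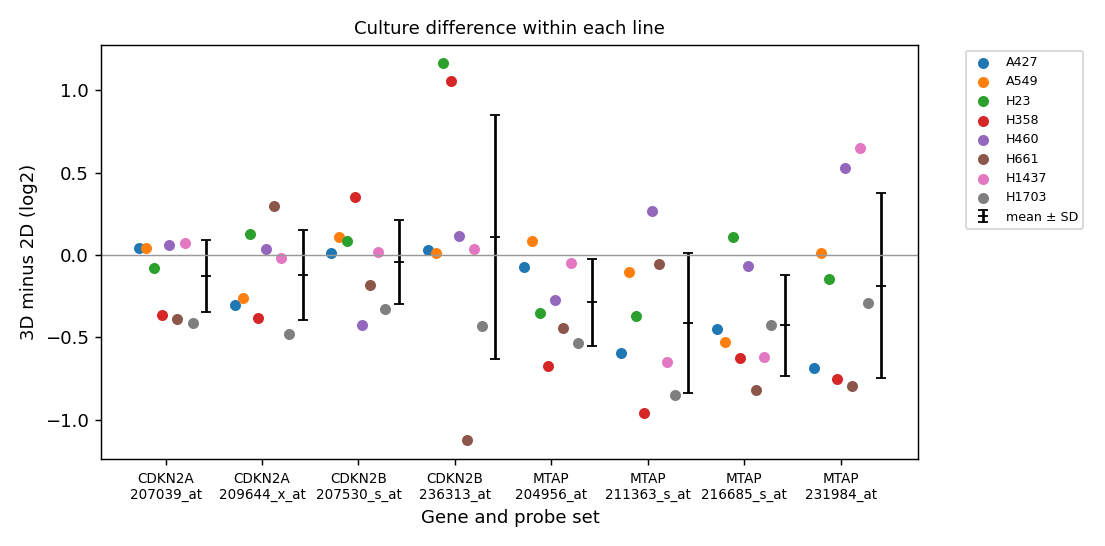
Difference of 3D minus 2D (log2, vertical axis) of each line for the 8 probe sets of the 3 genes that differ between lines, with 1 point per line and the mean ± SD over 8 lines beside it in black. Points of CDKN2B 236313_at reach from -1.12 in H661 to 1.16 in H23, and 7 of 8 points of MTAP 204956_at, 211363_s_at and 216685_s_at lie below 0.

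The proteins that p16INK4a and p15INK4b act on were described next, from lists of pathway genes, each gene by its representative probe set. Of all 13788 genes tested, 6.16% were called between 3D and 2D, 3.86% lower and 2.30% higher in 3D, with a median difference of -0.00. An unadjusted p under 0.05, counted for the lists that follow, was reached by 25.0% of them. Among the G1 kinases and cyclins 7 of 8 were tested and 1 fell in 3D: CCND1, cyclin D1, by -0.91 ± 0.70 and lower in 8 of 8 lines (limma, adjusted p = 0.0352), although its second probe set gave -0.35. In the limma fit over probe sets the representative of CCND1 had an adjusted p of 0.0613. The median of the list was -0.26, with all 7 below 0, and 3 had an unadjusted p under 0.05. CDK4 differed by -0.31 ± 0.24 (adjusted p = 0.0751), CDK6 by -0.20 ± 0.48 (0.474) and CCND3, cyclin D3, by -0.39 ± 0.28 (0.0624). The probe sets of CDK6 disagree in size, and 224848_at gave -0.78 (adjusted p = 0.0419 over probe sets). All 7 differed between lines. CDK4 was highest in A427 (1.02) and lowest in H460 (-0.33), CDK6 highest in H358 (2.09, with 1.44 in A427) and lowest in H23 (-1.13), and CCND1 highest in A427 (2.21) and lowest in H1703 (-2.23) and H661 (-2.18), as line means. The order for CDK6 is that of its representative 243000_at, while 5 further sets, a dim one left aside, were highest in A427, at 1.33 to 2.49. H1437 was at 0.98 on the representative, but at -2.34 on 224847_at, -2.32 on 224848_at and -2.31 on 224851_at. On 207143_at and 235287_at H1437 was at -0.14. CCND2, cyclin D2, was dim, with 9.54 in H23 and 9.80 in H1703 and the other lines between -0.63 and -0.45.

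Of the CDK inhibitors 6 of 7 were tested, 0 were called in 3D against 2D with a median of -0.01, 1 had an unadjusted p under 0.05, and 6 differed between lines. CDKN2D, the p19INK4d member of the INK4 family, had a span of -0.62 in H23 to 0.79 in A427 and a culture difference of -0.01 ± 0.28. CDKN1A, which encodes p21, was highest in A549 (1.88) and lowest in H1437 (-2.03), and its culture difference was -0.19 ± 1.06. CDKN1B, p27, differed by 0.29 ± 0.32 (limma, adjusted p = 0.149). CDKN2C was not analysed here.

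In the RB and E2F list 0 of 10 were called between cultures, 2 had an unadjusted p under 0.05, the median was -0.09 and 9 differed between lines. RB1 was highest in H661 (0.91) and H1703 (0.76), both with CDKN2A signal. Its means in the other 6 lines lay between -0.25 and 0.14, among them H23 (-0.25) and H358 (0.14), which also had CDKN2A signal. E2F1 differed by -0.53 ± 0.52 (limma, adjusted p = 0.0735) and RBL2, the RB family member p130, by 0.36 ± 0.35 (0.0929).

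On the ARF side 8 of 10 genes were tested, 0 were called between cultures with 1 at an unadjusted p under 0.05, the median was -0.05 and 8 differed between lines. MDM2, the ubiquitin ligase that ARF binds, was highest in A549 (4.23) on its representative 238733_at, with 1.62 in H460 and 1.17 in A427, and lowest in H358 (-0.44). Its probe sets disagree: of the 9 that were not dim, 2 were highest in A549 and 7 in A427, such as 205386_s_at with 1.90 in A427 and 0.49 in A549. The culture difference of MDM2 was -0.90 ± 1.16 on the representative (limma, adjusted p = 0.148), the lowest of the 9, and -0.45 to 0.23 on the other 8. MDM4, its partner, differed by 0.25 ± 0.34 on its representative (0.209), while its 225742_at fell by 1.51 (adjusted p = 0.0357 over probe sets). USP7, which removes ubiquitin from both, differed by 0.34 ± 0.51 (0.218) on its representative and by -0.24 on 201498_at, so no direction is given for either gene.

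**Figure D5:**
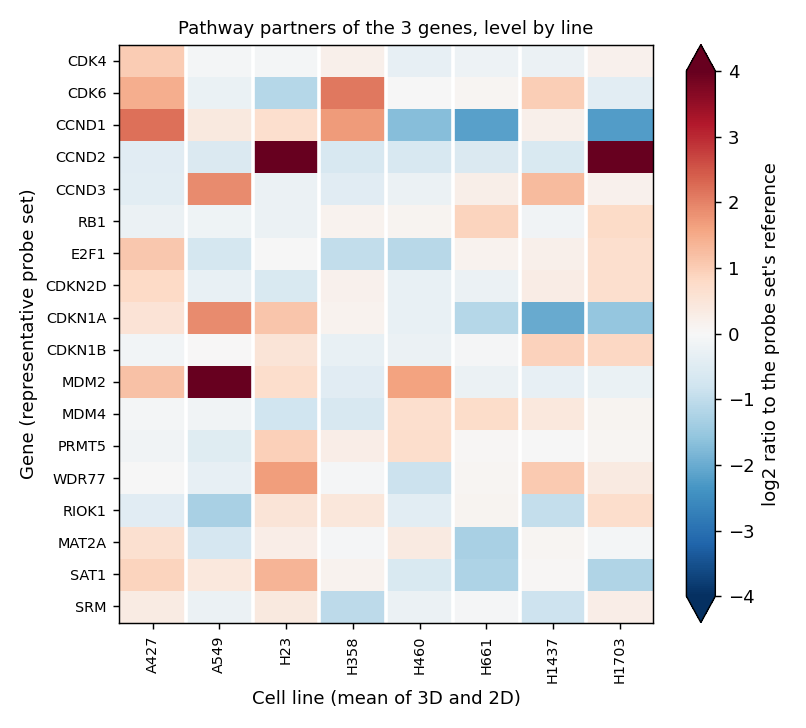
Line means of the log2 ratio (mean of 3D and 2D) for partners of the 3 genes, by representative probe set, with a colour scale that ends at 4 in each direction. CCND2 is high in H23 and H1703 alone, MDM2 is highest in A549 on its representative probe set (most of its other probe sets are highest in A427), and RIOK1 is lowest in A549 and H1437.

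Of the methionine salvage and polyamine genes all 15 were tested, MTAP by its flat representative, 0 were called between cultures, 5 had an unadjusted p under 0.05, and 14 differed between lines, with a median difference of -0.17. SAT1, which acetylates polyamines for breakdown, differed by 0.75 ± 0.67 and was higher in 3D in 7 lines (limma, adjusted p = 0.0548). SRM, spermidine synthase, differed by -0.59 ± 0.59 (0.0735), and GOT1, a transaminase, by -0.47 ± 0.55 (0.130). Among the genes of methylthioadenosine-sensitive methylation 9 of 9 were tested and 1 fell in 3D: WDR77, the MEP50 partner of PRMT5, by -0.54 ± 0.41 and lower in 6 of 8 lines (limma, adjusted p = 0.0467). In the limma fit over probe sets its representative had an adjusted p of 0.0694, and its second probe set gave -0.33 (adjusted p = 0.118). The median of the list was -0.25, with 7 of 9 below 0. An unadjusted p under 0.05 was reached by 7 of 9, and 9 differed between lines. PRMT5 differed by -0.23 ± 0.28 (adjusted p = 0.196), with its lowest mean in A549 (-0.47) and its highest in H23 (0.95). MAT2A, which makes the methyl donor S-adenosylmethionine, differed by -0.33 ± 0.45 (0.186) and by 0.09 on its second probe set, with its lowest mean in H661 (-1.30) and its highest in A427 (0.65). RIOK1, an adaptor of PRMT5 that was chosen after its values were seen, had its lowest means in A549 (-1.29) and H1437 (-0.95), the 2 lines low for MTAP, and its means in the other lines lay between -0.46 and 0.71.

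Of 17 regulators of the locus 15 were tested, 2 fell in 3D and 13 differed between lines, with a median difference of -0.07. An unadjusted p under 0.05 was reached by 5 of the 15. EZH2, the Polycomb methyltransferase that marks the locus in many cells, differed by -0.40 ± 0.30 (limma, adjusted p = 0.0496). DNMT1, the maintenance DNA methyltransferase, differed by -0.42 ± 0.30 with an adjusted p just under the threshold, and both were lower in 7 of 8 lines. In the limma fit over probe sets the adjusted p was 0.0721 for EZH2 and 0.0700 for DNMT1. ETS1, an activator of p16INK4a, differed by -0.77 ± 0.77 (0.0824), and by -0.16 on 224833_at. TBX2, a repressor of ARF, differed by 0.32 ± 0.31 (0.113), and by -0.19 on 205993_s_at. With 18S as a covariate 0 of the 4 calls on these lists (CCND1, WDR77, EZH2 and DNMT1) were made, and 0 without H23, H358, H460, H661 or H1703 as well.

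Cell type markers were read beside these lists. Of the tested markers, 0 of 5 epithelial, 0 of 4 leukocyte, 0 of 2 endothelial and 0 of 6 fibroblast genes were called between cultures, and 2, both of leukocytes, had an unadjusted p under 0.05 (CD53 and CD14). CD3E, MS4A1, CDH5 and VWF were dim. The epithelial markers differed among themselves over the lines. The keratins KRT8 and KRT18 were very low in H661 and H1703, where KRT8 had means of -6.64 and -6.08 and KRT18 of -4.60 and -5.61, against at least -0.39 for both in the other lines. KRT7 was lowest in the same lines (-3.60 in H661, -3.43 in H1703). KRT19 was low in H661 (-3.91) and H1703 (-3.81), and also in A427 (-3.84) and H23 (-3.19). EPCAM was at 1.25 in H661 and lowest in H460 (-6.19), H1703 (-5.95) and A549 (-5.38). CDH1 was dim, with 5.98 in H358 and 5.13 in H1437. H661 and H1703 are also the lines with the highest RB1, and both had CDKN2A signal. H23 and H358 had CDKN2A signal too, with RB1 means of -0.25 and 0.14 and KRT8 means of 0.50 and 1.58.

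Genes with the most similar pattern were ranked by Pearson's r over the 8 line means among the 13787 other tested genes, a description in which the points share arrays and in which a high r is easily reached with 8 points. For CDKN2A (207039_at) these were MED23 (0.97), ZNF793 (0.96), ZNF813 (0.96), ZNF793-AS1 (0.95) and ELMOD1 (0.95). For CDKN2B (236313_at) they were CRYBG2 (0.98), YIPF3 (0.97), H2AC15 (0.96), RABGAP1L (0.95) and ZNF718 (0.95). CDKN2B itself ranked 206 for CDKN2A, at r = 0.78, and RB1 ranked 254 (0.76). For MTAP the gene rule takes the flat 211364_at, whose nearest genes were POU3F2 (0.96), SH3BGR (0.95), PBX3 (0.95), PLEKHG1 (0.95) and NBPF4 (0.95), all highest in H661. The mean of the 4 MTAP probe sets that differ between lines, taken after the values were seen, was nearest to IAH1 (0.95), ZNF721 (0.94), DDX39A (0.93), PCID2 (0.92) and DUSP14 (0.91). TUSC1 ranked 9 for it (0.89), while CDKN2A (0.20) and CDKN2B (0.11) were far down its order.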

How the data were processed

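RNA from 8 lung cancer lines, each in 3D and 2D, was labelled with biotin and hybridised to Affymetrix U133 Plus 2.0 arrays from 200 ng of total RNA, per the labels' protocols. The values the authors deposited are log2 ratios per probe set. From the values themselves the reference is the probe set's median before the log2 step (within 0.001, log2) or, for dim ones, a value above it. The lowest ratio is 0.01, reached by 297 values. The sources used here name neither the software, probe summary and normalisation nor a genome build for the array. Gene symbols came from the platform annotation, updated through RefSeq GRCh38.p14: 41097 probe sets had 1 symbol, 1801 several and 11777 none.

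Fits used limma 3.58.1 in R 4.3.3 (lmFit, trended eBayes), a term for each cell line as the block, and Benjamini-Hochberg adjustment, called at 0.05. Probe sets of the 3 genes and their neighbours were fitted over all 41097 probe sets. Pathway genes were fitted over 13788 genes, 1 representative each (highest mean over 16 arrays), after 5987 of 19775 genes were left out as dim. As ratios are relative to each probe set's own reference, the highest mean need not be the strongest signal. A set very low in some lines has a lower mean, so gene counts between lines can miss such low lines. Lines were compared with the F test of 7 line coefficients. Pairing rests on the line named in the labels; each of 16 arrays was closest to its own line. Labels do not say whether cultures were independent, so p-values measure the spread between these samples. Named genes were every probe set of the 3 genes, a fixed set of partners, the 4 smallest p of every list, neighbours that passed the F test and the 5 genes most alike in pattern; only part of the list members is printed. The genes and lists were chosen with earlier results of these data known. Alternatives were the dim filter, centring, quantile normalisation, a floor of -3, the variance trend, robust eBayes, no block, 18S rRNA as a covariate, other representatives and leaving out each line. The steps were tested on simulated data.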

Additional observations from a re-analysis of the deposited data

Results flagged for a closer look

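Over the 11 probe sets, 33 groups of 8 values (3D, 2D and 3D minus 2D) were examined, and 3 held a value far from the other 7 by Dixon's test, where chance flags about 1 in 20 groups. CDKN2B 207530_s_at had 1.95 in H358 in 3D, with the nearest other line at -0.74, and 1.59 in H358 in 2D, with the nearest other line at -0.41. The same line was highest on CDKN2B 236313_at. MTAP 211364_at had 0.77 in H661 in 2D, with the nearest other line at 0.01, and in 3D the same line was also highest, at 0.47.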

How the results depend on the processing

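Across alternatives the count of probe sets of the 3 genes that differ between lines stayed at 7 to 9, against 8, and the 207039_at, 209644_x_at, 236313_at and 4 MTAP calls named in the report were made in each. For 3D minus 2D the count was 0 under all alternatives except with dim probe sets left out, where it was 1 (MTAP 216685_s_at, adjusted p = 0.0400). Without the replicate block (the cell line left out of the fit) it was also 0, with 4 of 41097 probe sets called, against 1124 with it. Signs turned, with no call on either side, for CDKN2A 211156_at with 18S as a covariate (-0.015), for CDKN2B 207530_s_at without H460 (0.011, with a range of -0.10 to 0.011 over lines left out) and for CDKN2B 236313_at, also as the gene's representative, with 18S (-0.23), without H23 (-0.043) and without H358 (-0.028), with a range of -0.043 to 0.28. MTAP as a gene was 0.13 by its representative, -0.16 with its probe sets averaged and -0.33 as the mean of the sets that differ between lines, an alternative chosen after seeing the data. MTAP 211364_at was called between lines with array medians centred (adjusted p = 0.0293), with no variance trend (0.0487) and without H358 (0.0410). The 4 pathway calls between cultures became 0 with 18S, and 0 to 5 when each line was left out in turn, with 1 without A549. Calls between cultures over all probe sets were 2260 with dim sets left out, 1 with 18S, and 20 (without H460) to 1336 (without A427) when each line was left out. Of the 15 genes named as most alike to the representatives of CDKN2A, CDKN2B and MTAP, 0 kept their place among the 5 nearest by Spearman's rho, 5 did so in 2D arrays alone and 4 in 3D arrays alone, and the genes most alike to the MTAP mean were not rerun. The cause of these changes was not tested. Signal over background, which limits the low arrays, could not be read from these ratios.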

Other observations

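Among the 27 tested neighbours on 9p21, 2 changed between cultures (limma, Benjamini-Hochberg over 13788 genes), where 6.16% of all genes did. Both were read on the representative probe set alone, and the culture differences of their other probe sets are not given here. C9orf72, known for its repeat expansion in motor neuron disease, rose in 3D by 0.66 ± 0.37 (SD, n = 8 lines) and was higher in 8 of 8 lines (adjusted p = 0.0247). B4GALT1, a Golgi galactosyltransferase, fell by 0.93 ± 0.65 and was higher in 1 line (adjusted p = 0.0285). Over the lines C9orf72 was highest in H460 (1.64) and lowest in H1437 (-0.26), and B4GALT1 was highest in H1437 (2.62) and lowest in H1703 (-1.23). With 18S as a covariate 0 of 13788 genes were called.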
